A study of Mus musculus with 4 samples.

Results

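The genes described here are the 10 mouse genes of TGF-β ligands, receptors, and latency proteins, chosen by name from a table of 20027 genes. They comprise the ligand genes Tgfb1, Tgfb2, and Tgfb3, the receptor genes Tgfbr1, Tgfbr2, and Tgfbr3, and the latent TGF-β binding protein genes Ltbp1, Ltbp2, Ltbp3, and Ltbp4. All 10 were in the table, and all 10 passed the filter on low values, which kept 11197 genes. RNA-Seq was performed on fibroadipogenic progenitors (FAPs), the interstitial mesenchymal cells of skeletal muscle, sorted without culture from hind limb muscle as Sca1+ cells lacking CD31, CD45, and Vcam1. The mice were males, 1.5 weeks of age, of strain C57BL/6 in the labels and C57BL/6J in the study's methods. There were 2 WT libraries, whose titles give Prx1-Cre alone, and 2 conditional knockout (cKO) libraries from Prx1-Cre;Bap1f/f mice. In the study's text the control genotype is Bap1f/f, so it is unclear whether the WT mice carried Prx1-Cre or the floxed allele. Prx1-Cre acts in the limb bud mesenchyme, from which cartilage, tendon, and bone of the limb also arise, so the deletion is not particular to FAPs. The labels number the males, and whether a library pooled several mice was not given in the sources used here.

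TGF-β is secreted as an inactive precursor. The propeptide is cut from the ligand by furin but stays wrapped around it as the latency-associated peptide, and in most cells this complex is disulfide-linked to a latent TGF-β binding protein (LTBP), which anchors it to fibrillin microfibrils and fibronectin in the matrix. Integrins or proteases release the ligand, which binds the type II receptor Tgfbr2. Tgfbr2 then recruits and phosphorylates the type I receptor Tgfbr1, and Tgfbr1 phosphorylates Smad2 and Smad3. The co-receptor betaglycan, encoded by Tgfbr3, presents the ligand, TGF-β2 above all. In skeletal muscle the pathway is known for driving FAPs toward matrix-producing fibroblasts.

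Values are RPKM, reads normalized to transcript length and to the library total, so levels of different genes may be compared within a library. Fold changes are on the log2(RPKM + 1) scale, cKO minus WT, from limma with Benjamini-Hochberg adjustment over all genes tested, and a gene is said to have risen or fallen where its adjusted p was under 0.05. Estimated depth was 46.5 M reads in WT replicate 1 and 41.4 M reads in cKO replicate 2, against 89.1 M reads and 90.4 M reads in WT replicate 2 and cKO replicate 1. Depth was thus not divided by group. Bap1, the deleted gene, encodes a deubiquitinase and read 13.95 and 12.86 RPKM in WT against 14.24 and 15.33 RPKM in cKO. Only part of the gene is deleted while RPKM spans the whole transcript, so this value does not check the genotypes. The median gene was higher in cKO by 0.27 log2 units, a shift that was -0.02 with quantile normalization and nearer to 0 with the other rescalings, so the differences of the 10 genes are also given relative to the median gene.

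The largest differences among the 10 genes were in latency protein genes. Of the 10 genes, Ltbp1 and Ltbp2 rose, Ltbp4 and Tgfb3 fell, and 6 did not pass the test. Ltbp2 was under 1 RPKM in both WT libraries and passed the filter on low values only through the cKO libraries. Among all genes tested, 35.9% were called higher and 6.48% lower. The 2 groups did not overlap in 9 of the 10 genes, against 72.3% of all genes tested. The median log2 fold change of the 10 genes was 0.16, against 0.27 for all genes tested. In bulk RNA, a lower level can mean fewer cells of a type or less RNA per cell, and these cannot be told apart.

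**Figure D1:**
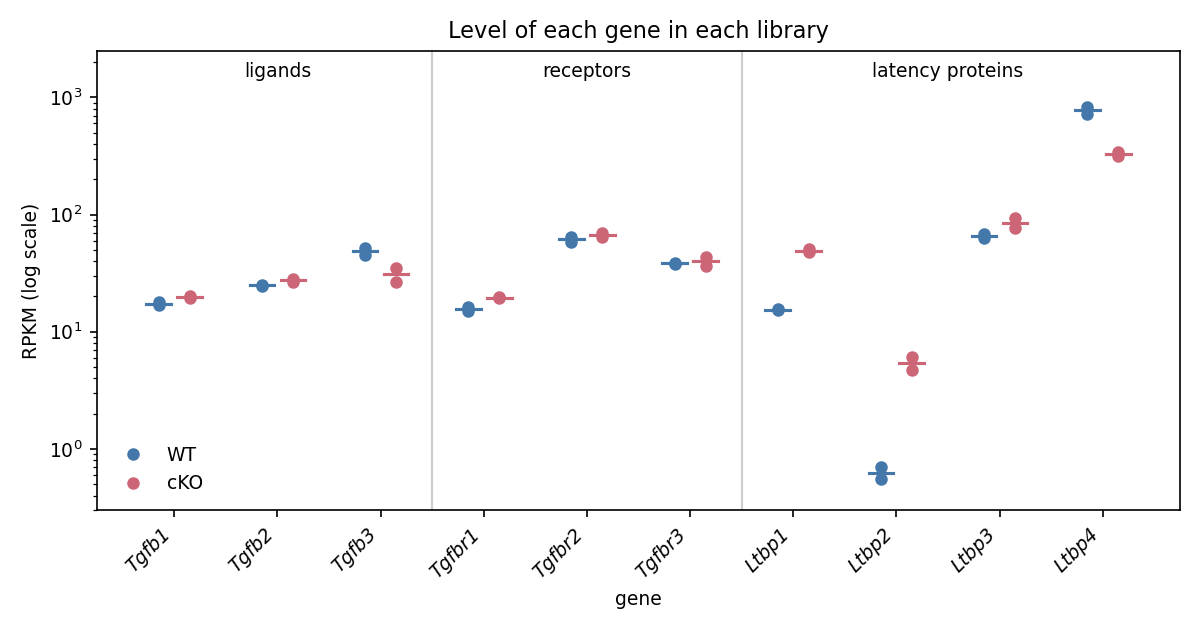
RPKM on a log scale for each of the 10 genes, with 1 point per library, WT in blue and cKO in red, and a line at each group mean. Ltbp4 lay above all others in both groups, Ltbp1 and Ltbp2 were higher and Ltbp4 and Tgfb3 lower in cKO, and the 2 groups overlapped for Tgfbr3.

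The sequence before the start site is shown for the 3 LTBP genes whose level differed most between the groups (RefSeq, GRCm38.p6), written 5′ to 3′ on the strand of the gene and ending before any exon of that gene in the annotation. The windows are chr17:75005279-75005479 for Ltbp1 on the plus strand, chr12:84876559-84876741 for Ltbp2 on the minus strand, and chr7:27337693-27337862 for Ltbp4 on the minus strand. Capitals mark GGGCGG, the GC box, or CCAAT, the CCAAT box, on either strand, and no match overlapped another.
Ltbp1: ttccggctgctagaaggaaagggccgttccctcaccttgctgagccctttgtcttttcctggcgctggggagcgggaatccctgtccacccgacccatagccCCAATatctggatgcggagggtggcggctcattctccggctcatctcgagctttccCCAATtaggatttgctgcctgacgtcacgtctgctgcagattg
Ltbp2: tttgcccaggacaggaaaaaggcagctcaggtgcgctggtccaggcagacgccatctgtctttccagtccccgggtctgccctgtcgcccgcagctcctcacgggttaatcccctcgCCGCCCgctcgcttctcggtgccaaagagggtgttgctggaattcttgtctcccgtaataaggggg
Ltbp4: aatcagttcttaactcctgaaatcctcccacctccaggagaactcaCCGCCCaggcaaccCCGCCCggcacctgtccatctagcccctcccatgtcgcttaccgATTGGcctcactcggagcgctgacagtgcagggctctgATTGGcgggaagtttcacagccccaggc
Ltbp1 had 2 CCAAT matches and 0 GC boxes, Ltbp2 had 1 GC box and 0 CCAAT matches, and Ltbp4 had 2 of each. Among all 32851 windows cut to the same length, 24.8%, 21.5%, and 19.5% held a GC box, and 28.6%, 25.5%, and 23.3% held CCAAT, for the lengths of Ltbp1, Ltbp2, and Ltbp4 respectively. TGANTCA, the AP-1 motif, and GTCTAGAC, a palindrome that SMAD proteins bind, had 0 matches on either strand in the 3 windows. Of all windows of these lengths, 4.69% to 5.59% held TGANTCA and 0.125% to 0.155% held GTCTAGAC. TATAAA also had 0 matches, and 12.4% of all windows of 250 bases held it. These matches are a description of letters and do not show binding.

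Ltbp4 encodes a latency protein that binds TGF-β1 and is needed for elastic fiber assembly, and it is known in muscle as a modifier of muscular dystrophy in mice. It was by far the most abundant of the 10 genes (NM_175641; chromosome 7, 27305136 to 27337692, minus strand, GRCm38, 33 exons). Its level was 719.3 and 826.3 RPKM in WT and 318.5 and 340.2 RPKM in cKO. Both WT libraries lay above both cKO libraries, with less spread within a group than between the groups. Ltbp4 ranked 63 and 50 among all genes in the WT libraries and 185 and 180 in the cKO libraries. It fell by 1.23 on the log2 scale (SE 0.141; limma adjusted p = 0.00106), a 2.34-fold lower level (95% CI 1.86 to 2.94). Its difference from the median gene was -1.49, and 0.714% of the genes tested had a lower log2 fold change.

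Ltbp1 encodes a latency protein that binds all 3 TGF-β isoforms and fixes them to fibrillin microfibrils and fibronectin. Ltbp1 (NM_019919; chromosome 17, 75005568 to 75392512, plus strand, GRCm38, 34 exons) was at 15.65 and 15.26 RPKM in WT and at 50.34 and 47.46 RPKM in cKO. The WT libraries differed little, and each cKO library stood well above both. Ltbp1 rose 3.03-fold, 95% CI 2.51 to 3.66 (log2 fold change 1.60, SE 0.116; limma adjusted p = 0.000207). It lay 1.33 above the median gene, and 97.7% of genes tested had a lower log2 fold change.

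Ltbp2 differs from the other LTBPs in that it does not bind latent TGF-β, and it is known as a microfibril-associated protein of tissues under load and of the eye. Ltbp2 (NM_013589; chromosome 12, 84783212 to 84876532, minus strand, GRCm38, 35 exons) was at 0.704 and 0.550 RPKM in WT and at 6.14 and 4.71 RPKM in cKO. It was the lowest of the 10 genes in every library, and its groups did not overlap. The fewest reads estimated behind any value of the 10 genes were 216 for Ltbp2 in WT replicate 1, so depth did not limit this value. Both WT values were under 1 RPKM, so Ltbp2 passed the filter on low values only through the cKO libraries where it was high. Ltbp2 rose, with a log2 fold change of 1.97 (SE 0.175; limma adjusted p = 0.000448), or 3.93-fold (95% CI 2.96 to 5.22), and lay 1.71 above the median gene. The pseudocount compresses this low gene, since the ratio of the group means was 8.65 and the log2 fold change was 2.92 with a pseudocount of 0.1.

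Ltbp3 encodes a latency protein that binds all 3 isoforms and is known for its role in bone and teeth. Ltbp3 (NM_008520; chromosome 19, 5740904 to 5758532, plus strand, GRCm38, 28 exons) was at 62.97 and 68.46 RPKM in WT and at 94.31 and 76.66 RPKM in cKO. The groups did not overlap, but the cKO libraries were farther apart than the WT libraries. On the log2 scale cKO was 0.37 higher (95% CI 0.05 to 0.69), 0.10 above the median gene, and the gene did not pass (limma adjusted p = 0.0652). Without cKO replicate 2 it passed, at 0.52 (limma adjusted p = 0.0126), and it also passed with the crossed pairing, at 0.37 (limma adjusted p = 0.0259), a block chosen after seeing the data that pairs replicate 1 of each group with replicate 2 of the other.

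Ltbp4 held most of the LTBP transcripts in both groups, and the make-up of the class differed between the groups. RPKM summed over the 4 genes was 798.6 and 910.6 in WT and 469.3 and 469.0 in cKO. Ltbp4 made up 90.1% and 90.7% of the sum in WT and 67.9% and 72.5% in cKO. Ltbp3 made up 7.88% and 7.52% in WT and 20.1% and 16.3% in cKO, and Ltbp1 1.96% and 1.68% in WT and 10.7% and 10.1% in cKO. Ltbp4 was 46.0 and 54.2 times as abundant as Ltbp1 in the WT libraries and 6.33 and 7.17 times in the cKO libraries. These shares and ratios are taken within a library, so multiplying a library by a single factor leaves them as they are, which is not so of quantile or cyclic loess normalization. With 2 libraries a group, an exact permutation test cannot pass a threshold of 0.05, so the shares were not tested.

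**Figure D2:**
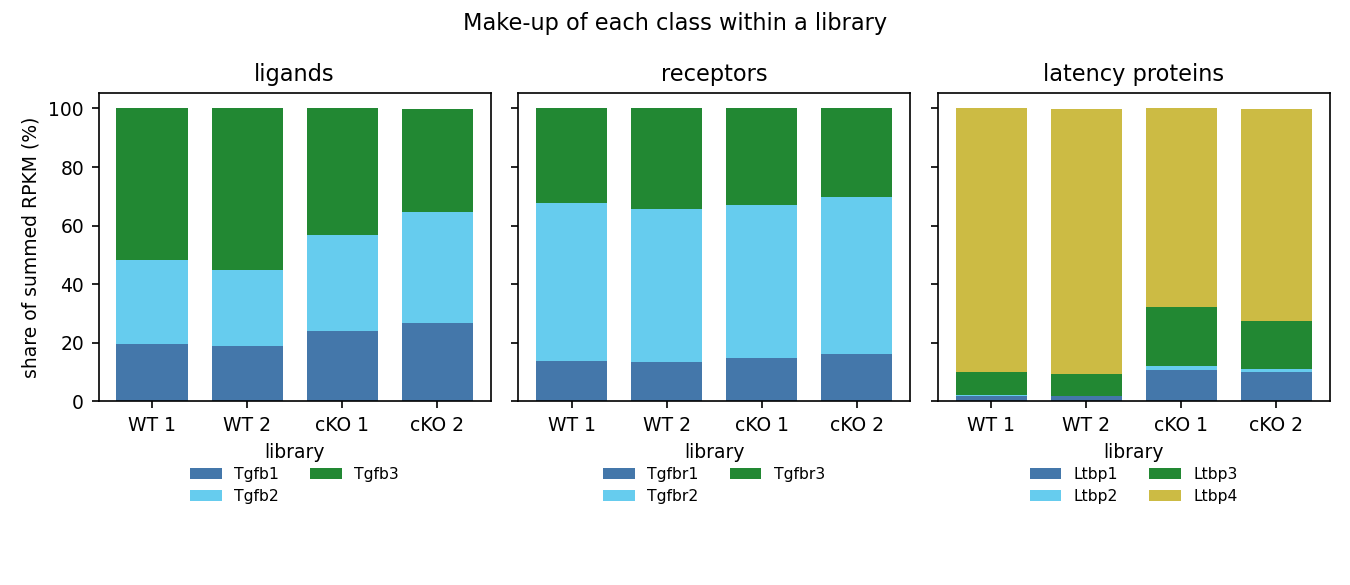
Share of each gene in the RPKM summed over its class, in percent, for each of the 4 libraries, with 1 stacked bar per library for ligands, receptors, and latency proteins. Ltbp4 took about 90% of the LTBP sum in WT and 67.9% and 72.5% in cKO, Tgfb3 took a smaller share of the ligand sum in cKO, and the receptor bars were nearly alike.

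Of the ligands, Tgfb3 was the most abundant in WT and was the ligand whose level fell. Tgfb3 encodes TGF-β3, known in development for palate closure and in limb mesenchyme for promoting cartilage and tendon formation (NM_009368; chromosome 12, 86056745 to 86079041, minus strand, GRCm38, 7 exons). Its level was 44.79 and 52.14 RPKM in WT and 35.04 and 26.57 RPKM in cKO. Both cKO libraries lay below both WT libraries, with a wide spread inside each group. Tgfb3 fell by 0.65 on the log2 scale (SE 0.160; limma adjusted p = 0.0155), 1.56-fold (95% CI 1.21 to 2.03), and lay 0.91 below the median gene. The call ended without WT replicate 2, at -0.54 (adjusted p = 0.0747), and without the filter on low values (adjusted p = 0.0608). The log2 fold change was -0.84 without cKO replicate 1 and -0.45 without cKO replicate 2. Ttll5, which overlaps Tgfb3 on the opposite strand, was near 2 RPKM in both groups, with a mean of 1.95 ± 0.424 in WT against 1.62 ± 0.345 for cKO (SD, n = 2). Since it is not stated whether strand was used in counting, reads where Tgfb3 and Ttll5 overlap cannot be assigned.

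Tgfb1 encodes TGF-β1, the isoform best known in fibrosis (NM_011577; chromosome 7, 25687002 to 25705077, plus strand, GRCm38, 7 exons). It stood at 16.90 and 17.89 RPKM in WT and at 19.46 and 20.10 RPKM in cKO. The groups did not overlap but lay close together. On the log2 scale cKO was 0.18 higher (95% CI -0.11 to 0.46, limma adjusted p = 0.274), which is -0.09 against the median gene. Tgfb2 encodes TGF-β2, the isoform with the greatest need of betaglycan (NM_009367; chromosome 1, 186622792 to 186705989, minus strand, GRCm38, 7 exons). Tgfb2 was at 25.04 and 24.74 RPKM in WT and at 26.79 and 28.30 RPKM in cKO, again close but not overlapping. The difference was 0.14 (95% CI -0.13 to 0.41, limma adjusted p = 0.364), or -0.12 against the median gene. As folds these intervals ran from 0.929 to 1.37 for Tgfb1 and from 0.913 to 1.33 for Tgfb2, and all 3 rescalings made both differences negative.

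The balance of ligands followed Tgfb3. Tgfb3 made up 51.6% and 55.0% of the RPKM summed over the 3 ligands in WT and 43.1% and 35.4% in cKO. It was 1.79 and 2.11 times as abundant as Tgfb2 in WT and 1.31 and 0.939 times in cKO. The ratio of Tgfb2 to Tgfb1 was 1.48 and 1.38 in WT and 1.38 and 1.41 in cKO, so that the groups overlapped. The summed ligand level was 86.73 and 94.77 RPKM in WT and 81.3 and 74.96 RPKM in cKO.

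The 3 receptor genes did not pass the test, and their intervals were narrow. Tgfbr2, the type II receptor that binds the ligand (NM_009371; chromosome 9, 116084293 to 116175360, minus strand, GRCm38, 8 exons), was the most abundant receptor, at 64.25 and 58.87 RPKM in WT and at 68.95 and 64.70 RPKM in cKO. Its cKO libraries stood only slightly above its WT libraries, with a log2 fold change of 0.12 (95% CI -0.16 to 0.39, limma adjusted p = 0.454). Tgfbr3, betaglycan (NM_011578; chromosome 5, 107106570 to 107289629, minus strand, GRCm38, 17 exons), was at 38.19 and 38.69 RPKM in WT and at 43.53 and 36.47 RPKM in cKO. It was the gene whose groups overlapped, both WT values lying between the cKO values, and its log2 fold change was 0.05 (95% CI -0.25 to 0.35, limma adjusted p = 0.780). Tgfbr1, the type I receptor kinase also called ALK5 (NM_009370; chromosome 4, 47353222 to 47414931, plus strand, GRCm38, 9 exons), was at 16.24 and 15.06 RPKM in WT and at 19.65 and 19.36 RPKM in cKO. The groups did not overlap, and the log2 fold change was 0.30 (95% CI 0.02 to 0.59, limma adjusted p = 0.0841), which is 0.04 above the median gene.

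Within each library the receptors kept similar proportions, with a slightly larger Tgfbr1 share in cKO. Tgfbr1 made up 13.7% and 13.4% of the receptor sum in WT and 14.9% and 16.1% in cKO, without overlap. Tgfbr2 was 3.96 and 3.91 times as abundant as Tgfbr1 in WT and 3.51 and 3.34 times in cKO. Tgfbr3 made up 32.2% and 34.4% of the receptor sum in WT and 32.9% and 30.3% in cKO. The differences of Tgfbr2 and Tgfbr3 relative to the median gene were -0.15 and -0.21. Under rescaling, Tgfbr2 and Tgfbr3 turned negative in all 3 scalings and Tgfbr1 with quantile and cyclic loess normalization, and no receptor passed in any of the scalings.

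**Figure D3:**
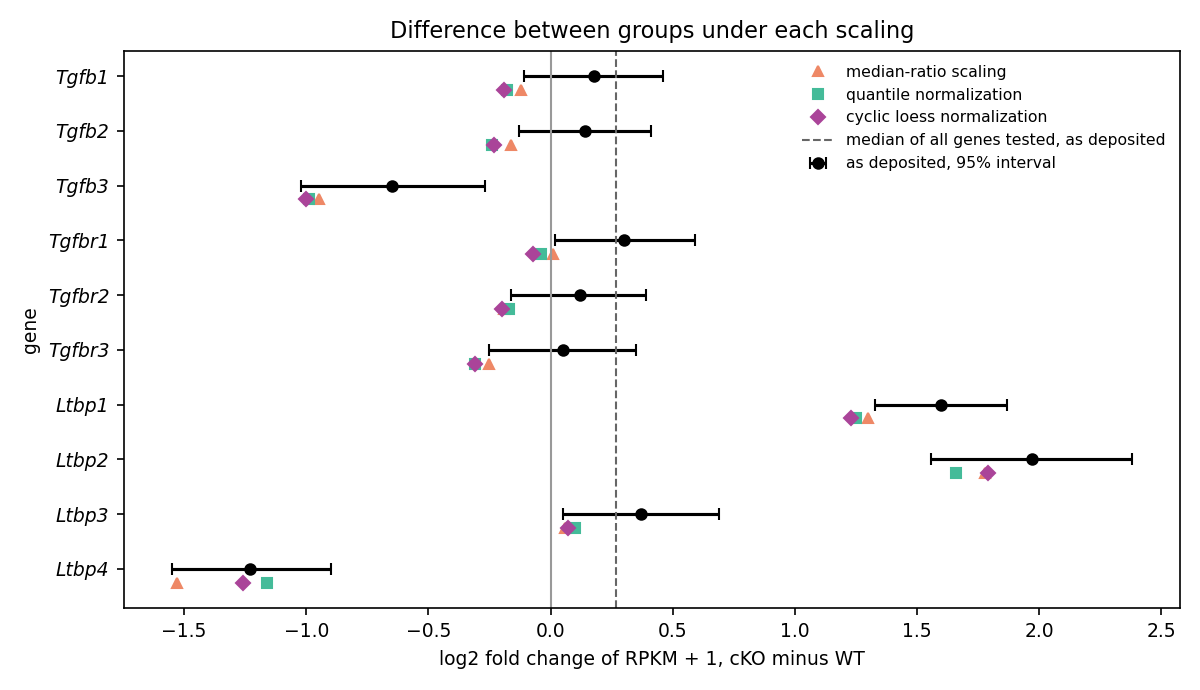
Log2 fold change of RPKM + 1, cKO minus WT, for each gene, with black points and 95% intervals for the values as deposited and colored symbols below them for 3 rescalings of the libraries. The dashed line at 0.27 is the median of all genes tested, and Ltbp1, Ltbp2, Ltbp4, and Tgfb3 kept their direction in all 3 rescalings while Tgfb1, Tgfb2, Tgfbr2, and Tgfbr3 turned negative.

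The order of levels in WT was Ltbp4, Ltbp3, Tgfbr2, Tgfb3, Tgfbr3, Tgfb2, Tgfb1, Tgfbr1, Ltbp1, and Ltbp2, by mean RPKM. Ltbp3 and Tgfbr2 overlapped between libraries in that order, as did Tgfbr1 and Ltbp1. In cKO the order was Ltbp4, Ltbp3, Tgfbr2, Ltbp1, Tgfbr3, Tgfb3, Tgfb2, Tgfb1, Tgfbr1, and Ltbp2. Here Tgfb3 overlapped with Tgfb2, and Tgfb1 with Tgfbr1. Ltbp1 thus moved from position 9 to position 4, while Tgfb3 moved from position 4 to position 6. Of the genes that moved oppositely, Ltbp2 and Tgfb3 are on the same chromosome, 1180 kb apart on chromosome 12. Ltbp4 and Tgfb1, which did not pass, lie 1600 kb apart on chromosome 7.

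The groups did not overlap for the 4 genes that passed, so any WT library set against any cKO library gives the same direction. Only the sizes between libraries of like depth are therefore of interest. Between the shallower libraries, WT replicate 1 and cKO replicate 2, the log2 difference was 1.54 for Ltbp1, 1.74 for Ltbp2, -1.08 for Ltbp4, and -0.73 for Tgfb3. Between the deeper libraries, WT replicate 2 and cKO replicate 1, it was 1.66, 2.20, -1.37, and -0.56 for the same genes. Each of these rests on 1 library per group and has no test.

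Markers of other cell types moved with these differences. Beside the counts given here, 35.9% of all genes tested were called higher in cKO and 6.48% lower. All 10 chondrocyte markers were higher in cKO, and their summed level ranged from 21.9 to 23.5 RPKM in WT and from 1760 to 2110 RPKM in cKO, where Col2a1 alone reached 1490 and 1290 RPKM. All 7 tenocyte markers were higher, with sums from 182 to 201 RPKM in WT and from 1600 to 1840 RPKM in cKO, and Scx, a tendon transcription factor, at 0.856 and 0.957 against 10.4 and 4.47 RPKM. Of 11 pericyte and smooth muscle markers, 8 were higher and 0 lower, with sums from 99.5 to 134 RPKM in WT and from 391 to 497 RPKM in cKO. All 3 perineurial markers were also higher, with sums from 36.7 to 39.4 and from 111 to 149 RPKM, and all 5 tested Schwann markers of 6, with sums from 13.6 to 16.1 and from 33.8 to 42.4 RPKM. Of the markers that rose, Acan, Col9a1, Matn1, Matn3, Hapln1, Col10a1, Scx, Mkx, Itgb4, Ncmap, and Cnn1 were under 1 RPKM in both WT libraries. They passed the filter on low values only through the cKO libraries, where they were high. Of 12 FAP markers 8 were lower and 0 higher. Their sums ranged from 9610 to 9760 RPKM in WT and from 6550 to 6710 RPKM in cKO. Pdgfra, the leading FAP marker, fell from 104.4 and 135.6 to 69.73 and 51.29 RPKM. Much of the cKO sums came from Dcn, named after its values were seen, at 2973 and 3120 RPKM against 2594 and 2637 RPKM in WT. Myofiber markers were lower in 6 of 7 tested, with sums from 63.8 to 85.7 and from 22.2 to 23.7 RPKM. The leading pericyte marker Rgs5 went from 6.52 and 14.9 to 58.5 and 72.8 RPKM. Itgb4, leading the perineurial list, went from 0.654 and 0.461 to 8.84 and 11.1 RPKM. The leading myofiber marker Acta1 went from 16.1 and 24.6 to 5.73 and 6.52 RPKM. Sox10, leading the Schwann list and not tested, was at 0.376 and 0.32 RPKM in WT and 0.714 and 1.32 RPKM in cKO. The part of these cell types in the differences of Ltbp1, Ltbp2, Ltbp4, and Tgfb3 was not tested. Of the lineages selected against in the sort, the leading markers were low, with Ptprc, which encodes CD45, at most 0.254 RPKM, Pecam1, which encodes CD31, at most 3.12 RPKM, and Pax7 of muscle stem cells at most 0.0988 RPKM. Other markers of these lists stood at higher levels or differed between the groups, and they are named here after their values were seen. Cdh5, an endothelial cadherin, rose from 1.43 and 3.68 to 6.45 and 11.31 RPKM, while Tek, an endothelial receptor kinase, was at 22.79 and 18.90 RPKM in WT and at 20.75 and 11.19 RPKM in cKO. Lyz2, lysozyme of myeloid cells, rose from 0.517 and 1.79 to 2.33 and 3.58 RPKM, and Itga7, an integrin of muscle cells, from 9.38 and 11.70 to 29.56 and 42.28 RPKM. Vcam1, whose protein was selected against in the sort, fell from 27.69 and 24.96 to 18.30 and 20.49 RPKM. The sums of the 9 endothelial markers overlapped between groups, at 28.9 to 32.8 RPKM in WT and 31.0 to 31.5 RPKM in cKO, as did those of the 10 hematopoietic markers, at 9.67 to 11.4 and 9.82 to 14.0 RPKM. Those of the 7 muscle stem cell markers were 39.1 to 39.2 and 50.2 to 64.9 RPKM.

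Other genes of the pathway were described by 7 lists holding 75 genes, of which 70 were tested. In all, 26 were higher, 13 were lower, and 31 did not pass, and the median log2 fold change was 0.21, against 0.27 for all genes tested. Among all genes tested, 35.9% were called higher, 6.48% lower, and 42.4% in either direction. These shares also stand beside the counts of each list below. Unless said otherwise, the genes named are up to 3 in each list that passed with the smallest p and are in no marker list. Of these 19, the call of 11 held at the 0.05 threshold under every alternative fit that tested the gene, and the calls of the others ended where stated.

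The share of all genes tested that rose was 35.9%, and 6.48% fell. Of the genes that mature or activate latent TGF-β, 5 of 12 tested rose and 1 fell, with a median log2 fold change of 0.29. The number that rose was 2 with median-ratio scaling and 3 without WT replicate 1, and the number that fell was 0 without the filter. Itgav, the αv chain of the integrins that release TGF-β from its propeptide, rose from 19.46 and 18.12 RPKM in WT to 38.14 and 46.76 RPKM in cKO (log2 fold change 1.13, limma adjusted p = 0.00137). Its β partners differed in direction, with Itgb1 higher at 170.4 and 176.0 against 252.3 and 290.6 RPKM (log2 fold change 0.64), a call that ended with median-ratio scaling and without WT replicate 1. Mmp9, a gelatinase that can free latent TGF-β, rose from 2.19 and 2.69 to 6.12 and 4.58 RPKM (log2 fold change 0.88). Itgb5, named after its values were seen as the gene of this list that fell, went from 53.67 and 57.28 to 40.51 and 27.48 RPKM (log2 fold change -0.72, limma adjusted p = 0.0168). The partners that define TGF-β-activating integrins of epithelia and other cells, Itgb6 and Itgb8, were under 1 RPKM in every library and were not tested. They too were named after their values were seen.

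Of the 7 genes that anchor LTBPs in the matrix, 1 rose and 1 fell, with a median of 0.32. The number that rose was 2 without WT replicate 2 or with either other form of eBayes, and 3 with the crossed pairing. Tgm2, the transglutaminase that crosslinks LTBPs to matrix, rose from 23.30 and 19.16 RPKM to 69.66 and 96.63 RPKM (log2 fold change 1.91, limma adjusted p = 0.000530). Fn1, fibronectin, fell from 774.1 and 564.6 RPKM to 443.3 and 343.1 RPKM (log2 fold change -0.76, limma adjusted p = 0.0190), a call that ended without the filter and without WT replicate 1. Fbn1, the fibrillin to which LTBPs attach and also named after its values were seen, was at 362.3 and 309.1 RPKM in WT and at 415.8 and 293.6 RPKM in cKO, with overlapping groups. Of 6 tested extracellular binders and milieu molecules, 2 rose and 1 fell, with a median of 0.12. Without cKO replicate 1, 2 fell. Cd109, a co-receptor that binds TGF-β1 and dampens its signal, rose from 3.82 and 1.83 to 16.76 and 13.16 RPKM (log2 fold change 2.10, limma adjusted p = 0.00135). Bgn, the proteoglycan biglycan, which binds TGF-β, fell from 1818 and 1948 to 1202 and 1210 RPKM (log2 fold change -0.64), but this call ended without the filter, with quantile normalization, with the replicate block, and when WT replicate 1 or WT replicate 2 was left out. The other gene of this list that rose, Fmod, is also a tenocyte marker. Lrrc32, which holds latent TGF-β at the cell surface and was named after its values were seen, was at 45.53 and 45.18 RPKM in WT and at 42.20 and 49.98 RPKM in cKO.

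Of 6 tested co-receptors, related receptors, and decoys, 1 rose and 2 fell, with a median of -0.35. The number that fell was 4 under each of the 3 rescalings and without cKO replicate 1. Acvrl1, the type I receptor ALK1, known chiefly for BMP9 and TGF-β signals in endothelium, fell from 22.75 and 25.15 to 8.54 and 7.57 RPKM (log2 fold change -1.46, limma adjusted p = 0.000503). Eng, endoglin, the co-receptor that works with ALK1, fell from 42.64 and 56.26 to 29.59 and 23.84 RPKM (log2 fold change -0.86, limma adjusted p = 0.00678). Acvr1, the BMP type I receptor ALK2, rose from 15.43 and 18.07 to 40.22 and 49.09 RPKM (log2 fold change 1.36, limma adjusted p = 0.000857). The Acvrl1 and Eng groups did not overlap, and both genes kept their calls under every alternative fit at the 0.05 threshold.

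For the 2 lists that follow, the background was 35.9% of all genes tested higher and 6.48% lower. Of 9 SMADs and receptor adaptors, 4 rose and 1 fell, with a median of 0.17. This balance turned to 0 higher and 3 lower with median-ratio scaling and to 1 higher and 3 lower with quantile and with cyclic loess normalization. The counts were 1 higher and 0 lower without WT replicate 1, and 2 higher and 0 lower without WT replicate 2, and 2 were higher with the replicate block. Strap, an adaptor that binds the TGF-β receptors and Smad7 and also belongs to the SMN complex, rose from 39.14 and 37.03 to 60.65 and 73.02 RPKM (log2 fold change 0.79, limma adjusted p = 0.00369), a call that ended with median-ratio scaling. Smad4, the common partner of receptor-activated SMADs, rose from 15.94 and 18.16 to 25.24 and 27.45 RPKM (log2 fold change 0.60), but the call ended under all 3 rescalings and without WT replicate 1. Dab2, an endocytic adaptor of the receptors, fell from 41.34 and 41.06 to 28.83 and 31.78 RPKM (log2 fold change -0.43), and did not pass once WT replicate 1 or WT replicate 2 was left out. Of 13 SMAD corepressors and turnover genes, 6 rose and 1 fell, with a median of 0.30. The balance turned to 2 higher and 3 lower under each of the 3 rescalings. The number that rose was 3 without WT replicate 1 and 3 without WT replicate 2, and the number that fell was 2 without cKO replicate 1 and 0 without cKO replicate 2, without WT replicate 1, or without the filter. Usp4, a deubiquitinase of Tgfbr1, rose from 10.72 and 11.13 to 19.35 and 19.74 RPKM (log2 fold change 0.79, limma adjusted p = 0.00303). The ubiquitin ligases Smurf1 and Nedd4l rose by 0.67 and 0.94 log2 units. The Smurf1 call ended under all 3 rescalings and without WT replicate 2, and that of Nedd4l ended without the filter.

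While 35.9% of all genes tested rose and 6.48% fell, the targets of TGF-β went both ways. Of 17 transcriptional targets of TGF-β in mesenchymal cells, 7 rose, 6 fell, and 4 did not pass, with a median log2 fold change of 0.00. The number that fell was 1 without the filter and 3 without WT replicate 1. Timp1, a metalloproteinase inhibitor, rose from 53.80 and 48.48 to 222.8 and 225.5 RPKM (log2 fold change 2.11, limma adjusted p = 6.4e-05). Pmepa1, a feedback inhibitor of SMAD activation, rose from 25.95 and 21.68 to 43.64 and 44.96 RPKM (log2 fold change 0.87, limma adjusted p = 0.00262). Tgfbi, the TGF-β-induced matrix protein, fell from 390.9 and 332.9 to 159.3 and 185.9 RPKM (log2 fold change -1.06, limma adjusted p = 0.00193). Of other genes of the list, named after their values were seen, Col1a1, Col1a2, and Col3a1, the fibrillar collagens of interstitial matrix, fell by 1.34, 1.06, and 1.42 log2 units, whereas Ctgf, the matricellular target CCN2, rose by 0.97. Acta2 and Tagln, which rose by 3.48 and 3.82 log2 units, are also in the list of pericyte and smooth muscle markers. Cdkn2b, also named after its values were seen, rose but was under 1 RPKM in both WT libraries. It passed the filter on low values only through the cKO libraries. Smad7, the inhibitory SMAD induced by TGF-β and listed among the SMADs, was at 24.37 and 23.35 RPKM in WT and at 21.37 and 20.99 RPKM in cKO and did not pass (limma adjusted p = 0.294).

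**Figure D4:**
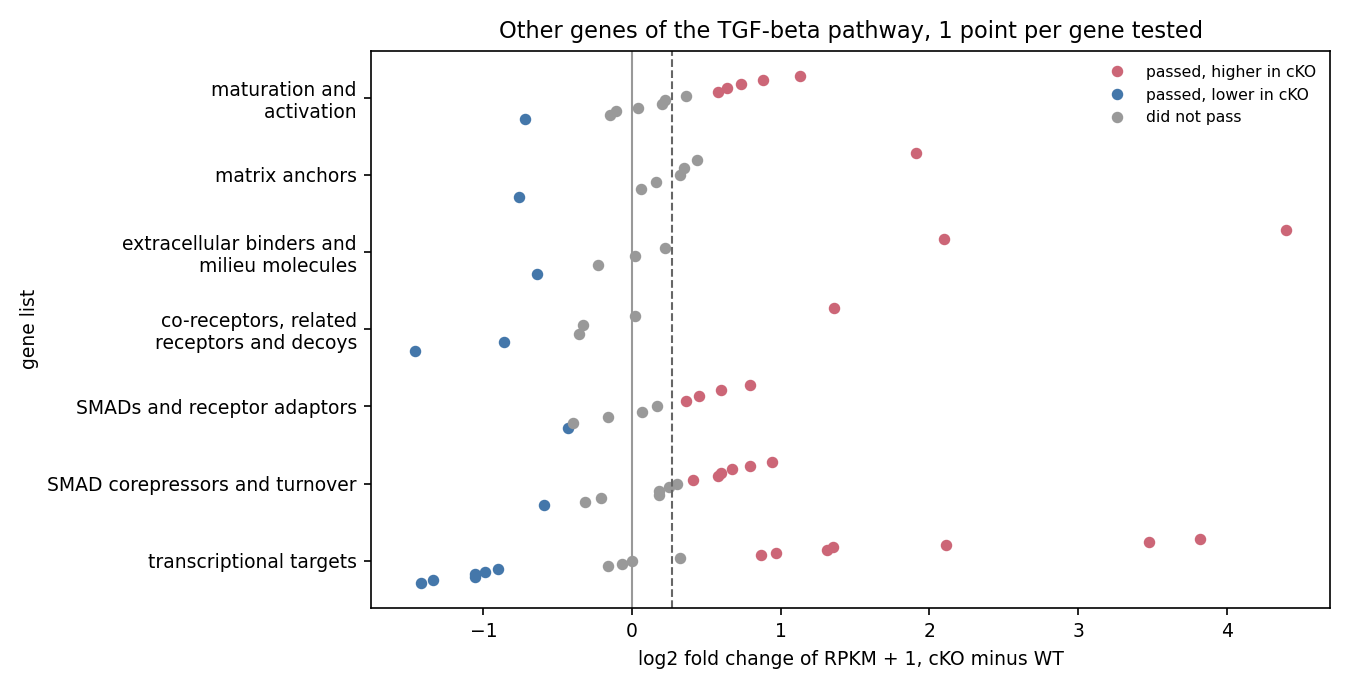
Log2 fold change of RPKM + 1, cKO minus WT, for the 70 tested genes of the 7 other pathway lists, with 1 point per gene, red where it passed and was higher in cKO, blue where it passed and was lower, and gray where it did not pass. The solid line marks 0 and the dashed line the median of all genes tested, 0.27, and the transcriptional targets lie on both sides with 7 higher and 6 lower.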

How the data were processed

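The deposited table gives RPKM for each RefSeq gene, computed by the authors from paired-end TruSeq libraries. The submitters' processing notes list TopHat2 (version 2.0.9), edgeR, and bedtools. Both mm10 and mm9 are listed as builds, with no role given. How reads were counted, and whether by strand, is not given in the sources used here. Counts were not used here, and genes with no reads stood at a small positive value rather than 0. Depth was estimated from that value in 432 single-exon olfactory receptor genes, taking a step of 2.5 times the value as 1 read. Genes reaching 1 RPKM in 2 libraries were kept, and log2(RPKM + 1) was fitted with limma (version 3.58.1, R 4.3.3), lmFit and eBayes with a trend, two-sided. The pseudocount understates changes of low genes. The model pools spread across genes. It was also run on simulated data with few changed genes, rising or falling at random, and no shift of the median gene. That run does not check calls where the median gene shifts, as it did here. Since RPKM is relative to a library's total, abundant genes affect the values of the rest. Replicates are numbered males. The p-values rest on the spread between 2 libraries a group, moderated toward that of other genes of like level.

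The genes and lists were chosen with earlier results of these data known, so no list was tested and no p was adjusted over a list alone. Named by rule were the 10 genes, Bap1, and the leading gene of each marker list. From each pathway list, up to 3 genes outside the marker lists that passed with the smallest p were also named. Other genes were named outside this rule, most of them after their values were seen, and Ttll5 for its overlap with Tgfb3. Older symbols in the table were matched for Ctgf, Cyr61, and Thsd4. Positions are from GENCODE M21 on GRCm38, and the authors may have used another build. Promoter windows from RefSeq matched 8 of the 10 genes. Alternatives were a pseudocount of 0.1 or 0.5, a minimum of 5 RPKM or none, 3 rescalings (cyclic loess, quantile, and median-ratio), robust eBayes or eBayes with no trend, omission of each library, a replicate block, and the study's adjusted p limit of 1e-05. A crossed pairing was added after seeing the data. Some results are not reported here. Figures were drawn with matplotlib.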

Additional observations from a re-analysis of the deposited data

How the results depend on the processing

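Ltbp1, Ltbp2, and Ltbp4 kept their direction and passed under every alternative that tested them at the 0.05 threshold, with log2 fold changes from 1.23 to 1.65, from 1.66 to 2.92, and from -1.53 to -1.13. Ltbp2 could not be tested with a filter at 5 RPKM, which left 1 of the 10 genes called higher. Tgfb3 was negative throughout, and 1 of the 10 genes was called lower without the filter on low values. Without each replicate in turn, between 1 and 2 of the 10 genes were called lower and between 2 and 3 higher. At an adjusted p limit of 1e-05, 0 of the 10 genes were called in either direction, and among all genes tested 5 were higher and 0 lower. At the 0.05 threshold over the whole table, 4016 genes were higher and 726 lower, and 84.7% of the calls were higher. The calls were 1755 higher and 1547 lower with median-ratio scaling (53.1% higher), 1777 and 1818 with quantile normalization (49.4%), and 1885 and 1710 with cyclic loess normalization (52.4%). Leaving out each replicate gave between 2386 and 4044 higher and between 390 and 1258 lower genes. The lowest number of higher genes came without WT replicate 2 and the highest number of lower genes without cKO replicate 1. Signs reversed for genes that had not passed. Tgfb1 was -0.12, -0.18, and -0.19, Tgfb2 -0.16, -0.24, and -0.23, Tgfbr2 -0.19, -0.17, and -0.20, and Tgfbr3 -0.25, -0.31, and -0.31, in the order of scalings above. Tgfbr1 was -0.04 with quantile and -0.07 with cyclic loess normalization, and Tgfbr3 lay between -0.07 without cKO replicate 1 and 0.18 without cKO replicate 2. The cause of these changes was not tested.

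Equal replicate numbers did not deviate together between the groups (correlation across genes -0.304). Depth differed between the replicates in opposite order in WT and cKO, so this correlation cannot decide whether libraries of equal number were paired. With the replicate block 3552 genes were higher and 731 lower, and 2 of the 10 genes were higher and 2 lower. With the crossed pairing, an alternative chosen after seeing the data, 4807 genes were higher and 1088 lower, and 3 of the 10 genes were higher, Ltbp3 being added.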
